A study of Mus musculus with 6 samples.

Results

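Chemokine genes of the CXC family were followed in mouse distal colon, together with 1 of their receptors. The members are the genes whose Ensembl identifiers map in GENCODE M21 to Cxcl1, Cxcl2, Cxcl3, Cxcl5, Cxcl12, Cxcl14, Cxcl16 and Cxcr4. All 8 were present among the 20533 genes measured, and all 8 passed the filter on low values. The colons came from C57BL/6 males, wild type and 7 weeks old, after 7 days on 1 of 3 regimes: water alone, 2% dextran sulphate sodium (DSS), or 2% DSS with montmorillonite powder. DSS is a sulphated polysaccharide in drinking water that damages the colonic epithelium, and montmorillonite is an adsorbent clay, whose dose no source used here gives. There were 2 RNA-seq libraries per regime, which the labels do not tie to separate mice, so that p-values measure only the spread between libraries, which may be technical.

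CXC chemokines are small secreted proteins that steer leukocytes along gradients through receptors coupled to G proteins. Cxcl1, Cxcl2, Cxcl3 and Cxcl5 carry a glutamate-leucine-arginine (ELR) motif, bind the neutrophil receptor Cxcr2 and are induced by interleukin-1, interleukin-17 and microbial products through NF-kB. In the colon they come from epithelium, stroma and myeloid cells. The others lack that motif: Cxcl12 is made by stromal and endothelial cells and holds Cxcr4-bearing cells in tissues, Cxcl14 is made constitutively by many epithelia, and Cxcl16 is a membrane-anchored ligand of Cxcr6 that is shed by proteases.

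The 4 ELR ligands lie on the plus strand of chromosome 5 within 147 kb (GRCm38): Cxcl5 at 90759360 to 90761624, Cxcl3 at 90786103 to 90789600, Cxcl1 at 90891241 to 90893115 and Cxcl2 at 90903871 to 90905938. RefSeq promoter entries (GRCm38.p6) matched 6 of the 8 members, not Cxcl5 and Cxcl16. The stretches of Cxcl3, Cxcl1 and Cxcl2, the ELR ligands with an entry, are shown. The log2 levels of these neighbouring genes correlated at r = 0.942 to 0.996 over the 6 libraries. That is not particular to them: Cxcl12 correlated with them at 0.957 to 0.981 and Cxcr4 at 0.931 to 0.978, from other chromosomes. Each runs from base 150 to base 21 before the RefSeq start, at chr5:90785951-90786080 (Cxcl3), chr5:90891095-90891224 (Cxcl1) and chr5:90903749-90903878 (Cxcl2), plus strand. RefSeq and GENCODE starts differ: the Cxcl2 stretch ends past the GENCODE start of 90903871, so its last bases lie within the gene as placed above. Capitals mark matches to TATAAA and to a form of the NF-kB site (GGG, any 3 bases, then TTCC), searched on both strands.
Cxcl3: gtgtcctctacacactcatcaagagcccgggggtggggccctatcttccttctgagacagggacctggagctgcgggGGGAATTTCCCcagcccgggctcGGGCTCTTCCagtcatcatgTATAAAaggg
Cxcl1: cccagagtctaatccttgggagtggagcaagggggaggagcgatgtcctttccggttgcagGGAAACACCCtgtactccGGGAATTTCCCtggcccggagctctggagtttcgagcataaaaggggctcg
Cxcl2: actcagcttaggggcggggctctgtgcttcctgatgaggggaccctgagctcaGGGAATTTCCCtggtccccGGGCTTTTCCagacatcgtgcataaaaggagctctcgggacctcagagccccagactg

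All 3 stretches hold the run GGGAATTTCCC, which reads as an overlapping match on each strand. Of 32851 RefSeq promoters, 4.65% had a match to that form in the 250 bases before the start and 12.4% had TATAAA. The shared run, the longest common to these 3 genes in that window and searched for after the matches were seen, occurred in 14 promoters, or 0.0426%. No match to the NF-kB form lay in that window of Cxcl12, Cxcl14 or Cxcr4, which says only that these letters are not there. A match is a description of the sequence and not a binding site.

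Values are normalised read counts, read counts divided by the authors by 1 factor per library. Libraries held 3741494 to 21481594 reads, DSS libraries being the deepest, and a single read was worth 0.335 to 2.27. Low values are therefore coarse, more so in water (0.960 and 2.27 for 1 read) and with montmorillonite (1.44 and 1.82) than in DSS (0.335 and 0.479). Colonic epithelial markers (Krt20, Vil1, Slc26a3 and 9 more) had reads in every library, as the tissue label states. The libraries given DSS plus montmorillonite stood apart from each other: across genes, log2 values of replicate 1 correlated with those of water at 0.959 and 0.947, and log2 values of replicate 2 with those of DSS at 0.948 and 0.954. Each value is therefore given by library.

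In water Cxcl2 and Cxcl3 were at or near the limit of detection, as was Cxcl1 in replicate 2. Cxcl5, Cxcl12, Cxcl14 and Cxcl16 had 27 reads or more in each water library. Cxcl1 (ENSMUSG00000029380.11) had 14.4 and 2.27, from 15 reads and 1 read, with counting intervals that overlap (8.06 to 23.7 and 0.0576 to 12.7). Cxcl2 (ENSMUSG00000058427.10) had 1.92 and 4.55, from 2 reads each. Cxcl3 (ENSMUSG00000029379.10) had no read in replicate 1, which allows a value of up to 2.88 (a limit of 3 reads), and 1 read, worth 2.27, in replicate 2. Cxcl5 (ENSMUSG00000029371.7) was the best detected of them, with 31.7 and 61.4 from 33 and 27 reads.

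Both DSS libraries were far above both water libraries for each ELR ligand. Cxcl1 had 259 and 1315 in DSS, Cxcl2 had 237 and 840, and Cxcl3 had 87.1 and 415. Cxcl5 reached 1669 and 6142. Replicate 2 was 3.54 to 5.09 times replicate 1 for these 4 genes, so they share a higher library within DSS as well as the difference from water. In bulk tissue more cells of a type and more RNA per cell cannot be told apart.

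**Figure D1:**
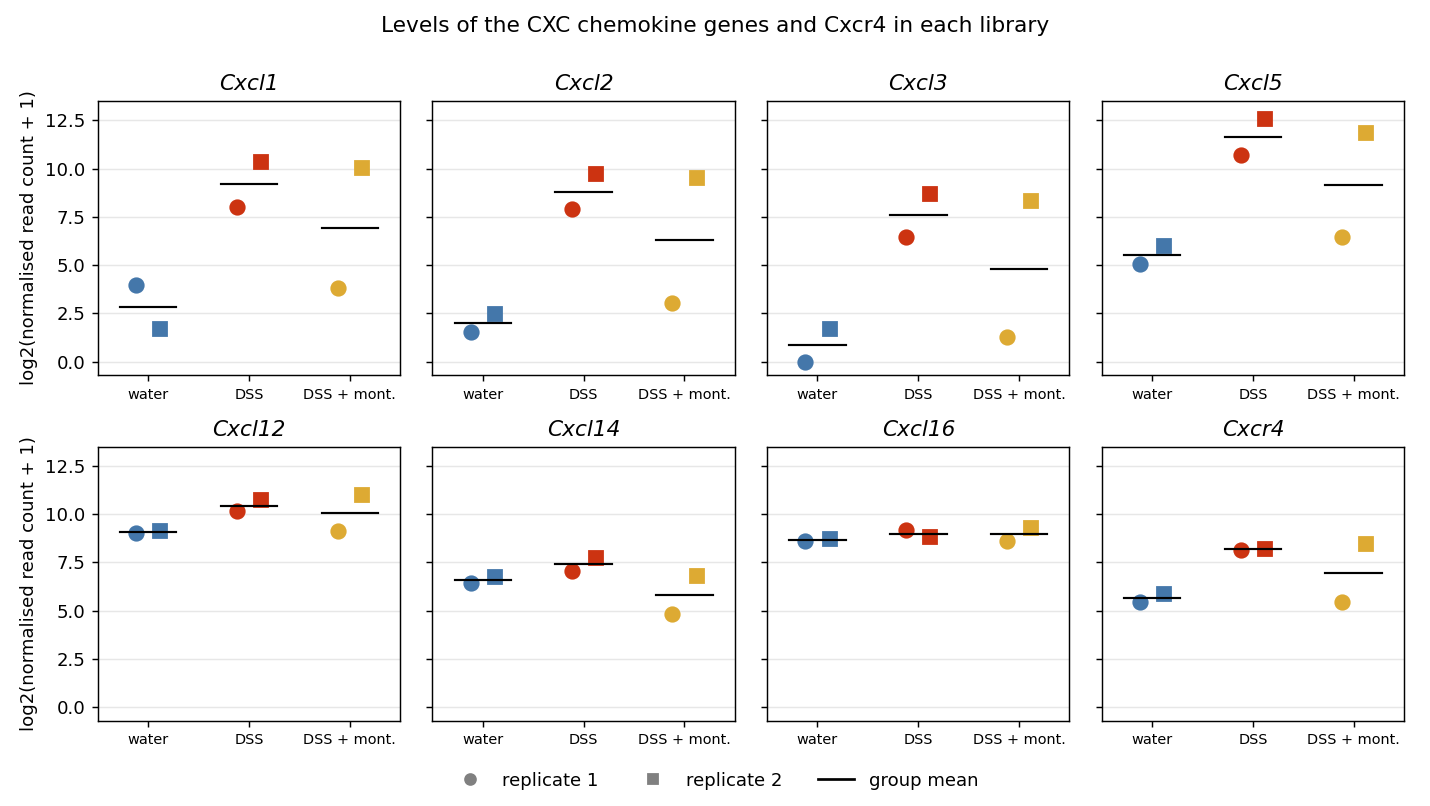
Levels of the 8 genes by library, on a log2(normalised read count + 1) axis; circles are replicate 1, squares replicate 2, and black lines group means of the log2 values. The ELR ligands of the upper row lie far above water in both DSS libraries and in replicate 2 of DSS plus montmorillonite (DSS + mont.), while replicate 1 of that group lies near water.

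Tested with limma on the 4 DSS and water libraries, 6 of the 8 members rose in DSS and none fell (Cxcl1, Cxcl2, Cxcl3, Cxcl5, Cxcl12 and Cxcr4). Among all 20307 genes tested 7.9% rose and 7.18% fell. The log2 change on the value + 1 scale was 6.36 ± 0.99 (SE) for Cxcl1 (limma adjusted p = 0.0154), 6.80 ± 0.69 for Cxcl2 (0.00691), 6.72 ± 0.94 for Cxcl3 (0.0122) and 6.15 ± 0.63 for Cxcl5 (0.00700). These correspond to 82.3-fold, 111-fold, 106-fold and 70.9-fold on that scale, where the added 1 shrinks the change of genes with few reads in water. The ratio of pooled reads, scaled by the authors' factor per library, was 180 for Cxcl2 (exact 95% counting interval 70.1 to 660). For Cxcl3 it was 329 (58.9 to 12993) and for Cxcl5 86.7 (67.3 to 114). For Cxcl1 it was 64.2 (39.5 to 112), below the fitted fold. Counting intervals and limits cover counting error only. The 95% confidence intervals of the 4 changes overlapped one another, from 3.94 to 8.79 for Cxcl1 and from 4.59 to 7.71 for Cxcl5.

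These calls depended on the fit. With all 6 libraries in 1 limma fit 0 of the 8 members passed, as did 0.0% of all genes, and the adjusted p was 0.141 to 0.158 for the ELR ligands (the smallest over all genes was 0.0576, and 4662 genes had an unadjusted p under 0.05). In the fit of 4 libraries 3 members passed without water replicate 1 (Cxcl1, Cxcl2 and Cxcl5), where 1.18% of all genes rose. Without water replicate 2, 4 passed (Cxcl2, Cxcl3, Cxcl5 and Cxcr4), where 1.25% of all genes rose, and without either DSS library no member and 0.0% of genes did. With reads thinned to the depth of the shallowest library 0 members passed (smallest adjusted p over all genes 0.0630 by limma). All 6 passed with edgeR and with DESeq2 on the recovered reads, by which 8.2% and 12.8% of all genes with an adjusted p rose. Scaling by library size only moved the median log2 change of all genes from 0.10 to 0.33 and the split of limma calls from 1605 higher and 1459 lower to 2165 and 876, and the same count of 6 members rose.

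The homeostatic ligands had smaller differences. Cxcl12 (ENSMUSG00000061353.11, chromosome 6, 117168535 to 117181367), the ligand of Cxcr4, had 517 and 566 in water against 1127 and 1715 in DSS, with no overlap. Its log2 change was 1.36 ± 0.24 (SE), or 2.57-fold (limma adjusted p = 0.0201, and 0.226 with 6 libraries). Cxcl12 did not pass when any 1 of the 4 libraries was left out, with log2 changes of 1.06 to 1.66 and an adjusted p of 0.0589 to 0.128.

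Cxcl14 (ENSMUSG00000021508.11, chromosome 13, 56288643 to 56296551) had 84.5 and 105 in water against 132 and 211 in DSS. Both DSS values were above both water values, but the log2 difference of 0.82 (95% confidence interval 0.03 to 1.61) did not pass (limma adjusted p = 0.141). Cxcl16 (ENSMUSG00000018920.11, chromosome 11, 70453983 to 70459984) had 393 and 416 in water against 569 and 453 in DSS. Its difference of 0.33 (95% confidence interval -0.15 to 0.81) did not pass either (limma adjusted p = 0.302). Over the 6 libraries it ran from 391 to 629, the smallest ratio of highest to lowest among the members.

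Cxcr4 (ENSMUSG00000045382.6, chromosome 1, 128588199 to 128592293), the receptor of Cxcl12 on lymphocytes and granulocytes, had 43.2 and 56.9 in water. In DSS it had 286 and 292, the closest pair among the members. The log2 change was 2.52 ± 0.27 (SE), or 5.74-fold (limma adjusted p = 0.00739, and 0.172 with 6 libraries). In the fit of 4 libraries the adjusted p was 0.0535 without water replicate 1, 0.0934 without DSS replicate 1 and 0.130 without DSS replicate 2. The libraries of all 8 members were higher in DSS than in water without overlap, against 33.9% of all genes, with 28.5% lower and 62.4% without overlap in either direction.

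**Figure D2:**
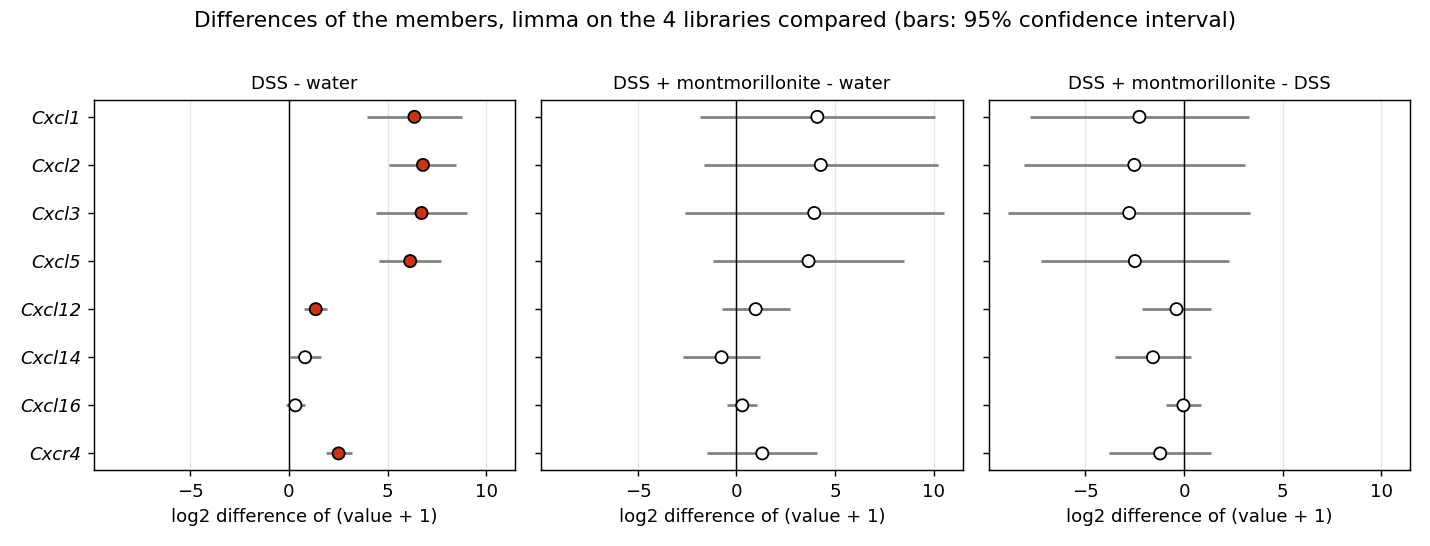
Log2 differences of (value + 1) between groups for the 8 genes, from limma fits of the 4 libraries of each comparison, with 95% confidence intervals as bars; filled points passed an adjusted p of 0.05. In DSS against water 6 genes passed, with intervals wholly above 0, as is that of Cxcl14, which did not pass, while no gene passed in the comparisons with DSS plus montmorillonite (DSS + montmorillonite), whose intervals for the ELR ligands are the widest.

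With montmorillonite the libraries parted. Cxcl1 had 12.9 in replicate 1 and 1059 in replicate 2, Cxcl2 had 7.19 and 739, Cxcl3 had 1.44 and 316, and Cxcl5 had 86.3 and 3694. Replicate 2 lay between the DSS libraries for each of these 4 genes. Replicate 1 lay within the water range for Cxcl1 and Cxcl3 and above it for Cxcl2 and Cxcl5. Its counting intervals (2.34 to 16.8 for Cxcl2, and 65.9 to 111 for Cxcl5) overlapped those of water replicate 2 (0.551 to 16.4, and 40.5 to 89.3). Against water replicate 1 the interval of Cxcl2 overlapped (0.232 to 6.93) and that of Cxcl5 did not (21.8 to 44.5).

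The other members showed the same parting on a smaller scale. Cxcr4 had 43.1 in replicate 1, at the lower water value, and 354 in replicate 2, above both DSS libraries. Cxcl12 had 551, between the water libraries, and 2055, the highest of all 6. Cxcl16 had 391 and 629, the lowest and the highest of all 6. Cxcl14 differed from the rest: replicate 1 had 27.3, from 19 reads with a counting interval of 16.5 to 42.7, below both water libraries, and replicate 2 had 111, between the water and the DSS libraries.

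On the log2(value + 1) scale replicate 2 exceeded replicate 1 by 5.40 (Cxcl5) to 7.02 (Cxcl3) for the ELR ligands, by 3.01 for Cxcr4, 1.98 for Cxcl14, 1.90 for Cxcl12 and 0.68 for Cxcl16. The median over all genes was 0. A difference of at least 4-fold was reached by 5 of the 8 members and by 9.01% of all genes, with 1 library on each side and no test. In DSS a 4-fold excess of replicate 2 over replicate 1 was reached by 2 members, Cxcl1 and Cxcl3, and by 2.36% of all genes.

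Against water, limma on the 4 libraries called 0 of the 8 members and 0.0% of all genes with DSS plus montmorillonite (smallest adjusted p = 0.629, 1576 genes at an unadjusted p under 0.05). edgeR also called 0 genes, and DESeq2 called 200, none of them a member. The fitted log2 differences were 3.65 to 4.27 for the ELR ligands, with intervals from -2.62 to 10.5. Libraries did not overlap, and were higher, for 2 members, Cxcl2 and Cxcl5, against 21.5% of all genes (40.8% in either direction). The mean of such a pair describes neither library.

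Against DSS alone, limma called 0 of the 8 members and 0.0% of all genes as well (smallest adjusted p = 0.691, 1444 genes at an unadjusted p under 0.05). edgeR called 0 genes, and DESeq2 called 76, none of them a member. The fitted log2 differences of the ELR ligands were -2.78 (Cxcl3) to -2.27 (Cxcl1), and without montmorillonite replicate 1 they turned to 0.21 (Cxcl5) to 0.86 (Cxcl1). Without montmorillonite replicate 2 they were -6.29 to -5.20, and Cxcl2, Cxcl5 and Cxcr4 passed as lower (limma adjusted p = 0.0457, 0.0486 and 0.0457), where 1.11% of all genes did. That fit compares 1 library, assumed to vary like the DSS libraries, with DSS. Cxcl14 was the only member whose libraries were lower without overlap, against 20.6% of all genes (39.9% in either direction), at a log2 difference of -1.58 ± 0.75 (SE) that did not pass (limma adjusted p = 0.702). The comparisons with water and with DSS share libraries, so they do not bear on each other independently.

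The order of the members per kb of exon changed with DSS. In water it was Cxcl16 (134 ± 5.53 SD per kb, n = 2), Cxcl12 (66.3 ± 4.23) and Cxcl14 (51.7 ± 7.80), whose ranges did not overlap. Cxcr4 (27.7 ± 5.34) and Cxcl5 (25.0 ± 11.3) followed with overlapping ranges, then Cxcl1 (4.45 ± 4.57) and Cxcl2 (1.56 ± 0.90), which overlapped too, and Cxcl3 (0.325 ± 0.460). In DSS Cxcl5 came first in both libraries, at 896 and 3297 per kb. Cxcl1 (420 ± 399), Cxcl2 (261 ± 206), Cxcl12 (174 ± 50.8), Cxcl16 (169 ± 27.1) and Cxcr4 (160 ± 2.29) could not be ordered beyond their spread. Cxcl14 (93.8 ± 30.6) and Cxcl3 (71.7 ± 66.2) came last, with ranges that overlapped too. In montmorillonite replicate 1 Cxcl16 and Cxcl12 led again, and in replicate 2 Cxcl5 and Cxcl1. The lengths are unions over all annotated isoforms, the longest being that of Cxcl12 at 8176 bases.

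The make-up of these 4 ELR transcripts can be read within a library, with no scaling between libraries. Cxcl5 made up 66.4% and 89.0% of their summed per kb level in water, 76.4% and 72.9% in DSS and, with montmorillonite, 81.1% and 66.2%. Cxcl5 thus had the largest share of these 4 in each library. Ppbp, an ELR ligand gene of the same cluster that is not counted here, had a higher level per kb than Cxcl5 in 3 libraries: 50.4 against 33.0 in water replicate 2, 8743 against 3297 in DSS replicate 2, and 2350 against 1983 in montmorillonite replicate 2. Cxcl3 was the smallest part throughout, at 0 to 3.02%. The water shares rest on only 50 and 31 reads and that of montmorillonite replicate 1 on 75. For Cxcl5, the exact 95% intervals of its share of reads were 51.2% to 78.8%, 70.2% to 96.4% and 69.2% to 88.4% in those libraries. In DSS the intervals of replicate 1 (73.1% to 75.2%) and replicate 2 (69.8% to 71.2%) did not meet, so the make-up differed between replicates beyond counting error.

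The balance between neutrophil-attracting and homeostatic ligands also shifted. The summed value of the 4 ELR ligands was 0.0928 and 0.124 times that of Cxcl12 in water, 2.00 and 5.08 times in DSS, and 0.196 and 2.83 times with montmorillonite. Water libraries and montmorillonite replicate 1 were thus below 1, and the other 3 libraries above it. These are ratios of read counts not corrected for length.

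**Figure D3:**
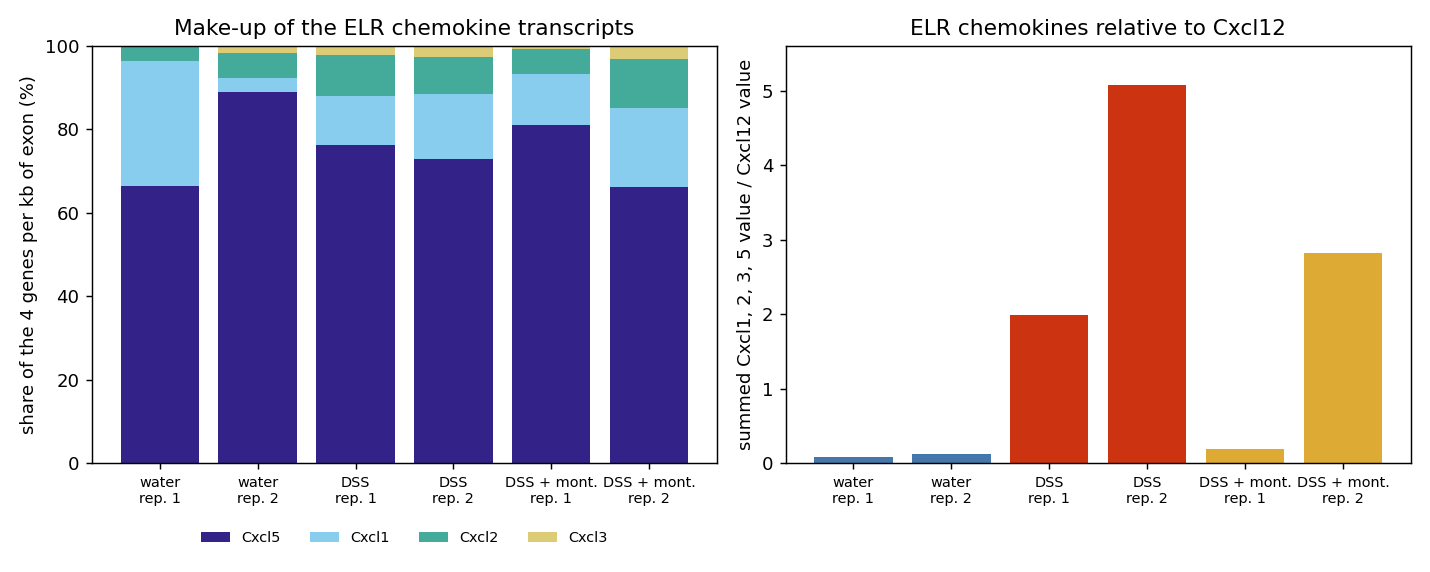
Left, share of Cxcl5, Cxcl1, Cxcl2 and Cxcl3 in their summed level per kb of exon (%) in each library; right, summed normalised read count of these 4 genes divided by that of Cxcl12. Cxcl5 takes 66.2% to 89.0% in every library, and the ratio to Cxcl12 runs from 0.0928 in water replicate 1 to 5.08 in DSS replicate 2.

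Neighbours in the chromosome 5 cluster did not all follow the ELR ligands. From 100 kb before Cxcl5 to 100 kb after Cxcl2 GENCODE lists 8 protein-coding genes, of which Cxcl15 was not analysed here; this window was chosen after values were seen. Pf4, the platelet factor 4 gene that lies between Cxcl5 and Cxcl3, had 125 and 95.5 in water, 215 and 402 in DSS and, with montmorillonite, 87.7 and 405. It rose in DSS by 1.42 ± 0.35 (log2, SE; limma adjusted p = 0.0487). Mthfd2l, a mitochondrial folate enzyme gene at the far end, had 76.8 and 105 in water, 108 and 138 in DSS and, with montmorillonite, 111 and 118. Its DSS libraries were higher than water without overlap, as for 33.9% of all genes, but it did not pass (limma adjusted p = 0.371).

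Ppbp, whose product is also known from platelets, lies 9.16 kb from Cxcl5 and had another pattern. It had 1.92 and 54.6 in water, 12.4 and 9468 in DSS and, with montmorillonite, 10.1 and 2545, so that the groups overlapped. It did not pass (log2 difference 4.81 ± 3.03 SE, limma adjusted p = 0.327). Beside it, stratified squamous epithelium markers, fixed as a list of 14 genes of which 13 were measured, gave sums of 55.7 and 503 for water, 214 and 41326 for DSS and, with montmorillonite, 151 and 8036. Their defining keratin Krt5 had 0, 47.8, 7.37, 12952, 36.0 and 2469 in the same order. Of the 13, 7 were at 0 in water replicate 1 (Krt5, Krt4, Krt6a, Krt1, Trp63, Krtdap and Ivl), and none passed in DSS against water. The part of such cells in the levels of Ppbp, or of Cxcl1 and Cxcl14, which keratinocytes also make, was not tested.

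**Figure D4:**
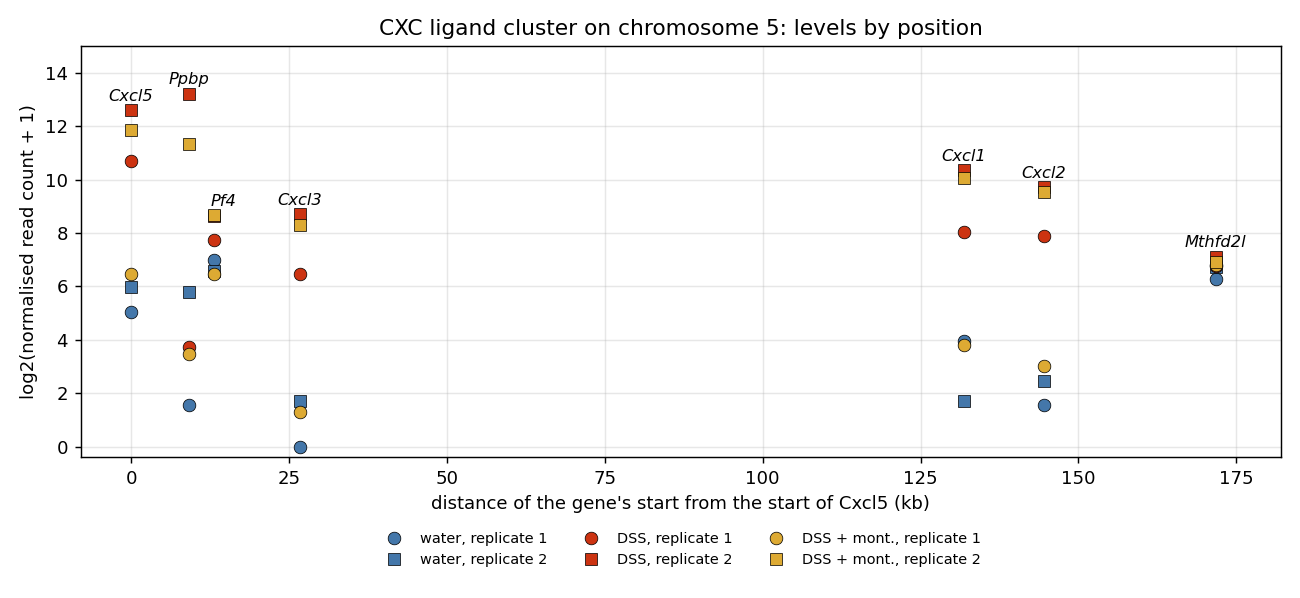
Log2(normalised read count + 1) of each measured protein-coding gene of the chromosome 5 cluster in the 6 libraries, against the distance of its start from that of Cxcl5 in kb (DSS + mont., DSS plus montmorillonite). Cxcl5, Cxcl3, Cxcl1 and Cxcl2 separate DSS from water in both replicates, Ppbp separates mainly the replicate 2 libraries, and Mthfd2l at 172 kb stays between 76.8 and 138.

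Among CXC and atypical chemokine receptors, not all of which bind the members, 3 of 8 tested genes rose in DSS and none fell (median log2 change 1.77, against 0.10 over all genes). Over all genes 7.9% rose and 7.18% fell, the shares to set beside this list and those below. Cxcr2, the receptor of the ELR ligands on neutrophils, had 0 and 2.27 in water, 137 and 341 in DSS and, with montmorillonite, 1.44 and 193. The water level rests on 1 read, and the ratio of pooled reads was 327 (exact 95% counting interval 58.6 to 12936; limma adjusted p = 0.00813). In montmorillonite replicate 1 Cxcr2 lay within its water range, at the value of 1 read, and Cxcl1 and Cxcl3 lay within theirs. Cxcl2 and Cxcl5 lay above theirs, though the counting interval of Cxcl2 overlapped those of both water libraries. Cxcr1, the other such receptor, had 0 reads in water and montmorillonite replicate 1 and at most 2.01 elsewhere, and fell under the filter on low values.

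Ackr3, the atypical receptor that binds and removes Cxcl12, had 126 and 123 in water, 477 and 662 in DSS and, with montmorillonite, 168 and 571. It rose in DSS by 2.17 ± 0.23 (log2, SE; limma adjusted p = 0.00750). Cxcr5, the B cell receptor for Cxcl13, had 18.2 and 45.5 in water, 278 and 122 in DSS and, with montmorillonite, 4.31 and 116, and rose in DSS by 2.63 (adjusted p = 0.0355). Cxcr6, the receptor of Cxcl16 on T cells, had 26.9 and 36.4 in water, 37.2 and 32.6 in DSS and, with montmorillonite, 17.3 and 18.2. Cxcr6 did not pass in DSS against water (adjusted p = 0.828), like its ligand.

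Of 7 other CXC ligands tested, 2 rose in DSS, Pf4 and Cxcl13, and 1 fell, Cxcl9 (median log2 change 0.49). Cxcl13, which guides B cells into follicles, had 73.9 and 75.0 in water, 1340 and 1379 in DSS and, with montmorillonite, 43.1 and 4246. Its rise of 4.17 ± 0.18 (log2, SE) had an adjusted p of 0.00137 by limma. Cxcl9, an interferon-induced ligand of the T cell receptor Cxcr3, had 352 and 273 in water, 69.7 and 51.3 in DSS and, with montmorillonite, 79.1 and 85.4. It fell by 2.36 on the log2 scale in DSS (adjusted p = 0.00904), and here both montmorillonite libraries lay apart from water. Cxcl10, of the same interferon-induced group, had 126 and 102, 171 and 64.2, and 73.4 and 43.6 in the 3 groups and did not pass (adjusted p = 0.895).

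Of 25 genes that induce ELR chemokines, relay that signal or restrain it, 13 rose in DSS and 1 fell (median log2 change 1.11). The list holds 4 restraining genes, Nfkbia, Tnfaip3, Zc3h12a and Zfp36, none of which passed. Il1b, which encodes interleukin-1 beta, had 30.7 and 40.9 in water and 1165 in both DSS libraries, and its receptor Il1r1 had 146 and 175 against 1278 and 2393. With montmorillonite Il1b had 90.6 and 901, and Il1r1 168 and 1957. Csf3, the granulocyte colony-stimulating factor gene, had no read in water, 46.9 and 654 in DSS and, with montmorillonite, 5.75 and 672. Il6 had 0.960 and 0 in water, 78.7 and 338 in DSS and, with montmorillonite, 1.44 and 205. Il17a had no read in water, 5.03 and 13.4 in DSS and, with montmorillonite, 1.44 and 18.2.

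Il1a, Il22, Il17ra, Tlr2, Cd14, Myd88, Nfkb2 and Rel rose as well in DSS, from 0.95 (Myd88) to 3.91 (Il1a) on the log2 scale. Il17rc, an interleukin-17 receptor subunit, went the other way: it had 2051 and 2047 in water, 473 and 542 in DSS and, with montmorillonite, 1513 and 761 (log2 change in DSS -2.01 ± 0.16 SE, limma adjusted p = 0.00480). Beside it, the 12 colonic epithelial markers gave sums of 211234 and 214120 for water, 78747 and 51954 for DSS and, with montmorillonite, 233195 and 120631, none at 0; 10 of them fell in DSS. Their part in the values of Il17rc was not tested. Tnf had 41.3 and 20.5 in water against 114 and 61.8 in DSS and did not pass (adjusted p = 0.103).

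Of 16 genes for chemokine cleavage and signalling, 8 rose in DSS and none fell (median log2 change 1.08). Neutrophil collagenase Mmp8 had no read in water, 89.4 and 441 in DSS and, with montmorillonite, 5.75 and 489. Mmp9, a gelatinase that trims ELR ligands, had 2.88 and 2.27, 303 and 523, and 2.88 and 340 in the 3 groups. Mmp2, which cleaves Cxcl12, rose by 2.64 (log2), the signal regulators Rgs1, Rgs2 and Arrb2 by 1.34 to 1.61, and the formyl peptide receptor genes Fpr1 and Fpr2 by 5.11 and 4.93. Dpp4, a peptidase that inactivates Cxcl12, had 383 and 291 in water against 269 and 88.2 in DSS, with no call (adjusted p = 0.201). The sheddases of Cxcl16 did not pass either: Adam10 had 1183 to 1421 in the 6 libraries, and Adam17 had 412 and 432 in water against 639 and 649 in DSS (adjusted p = 0.0629). In the fit of 6 libraries no gene of these 4 lists passed, and no gene of the whole table did.

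**Figure D5:**
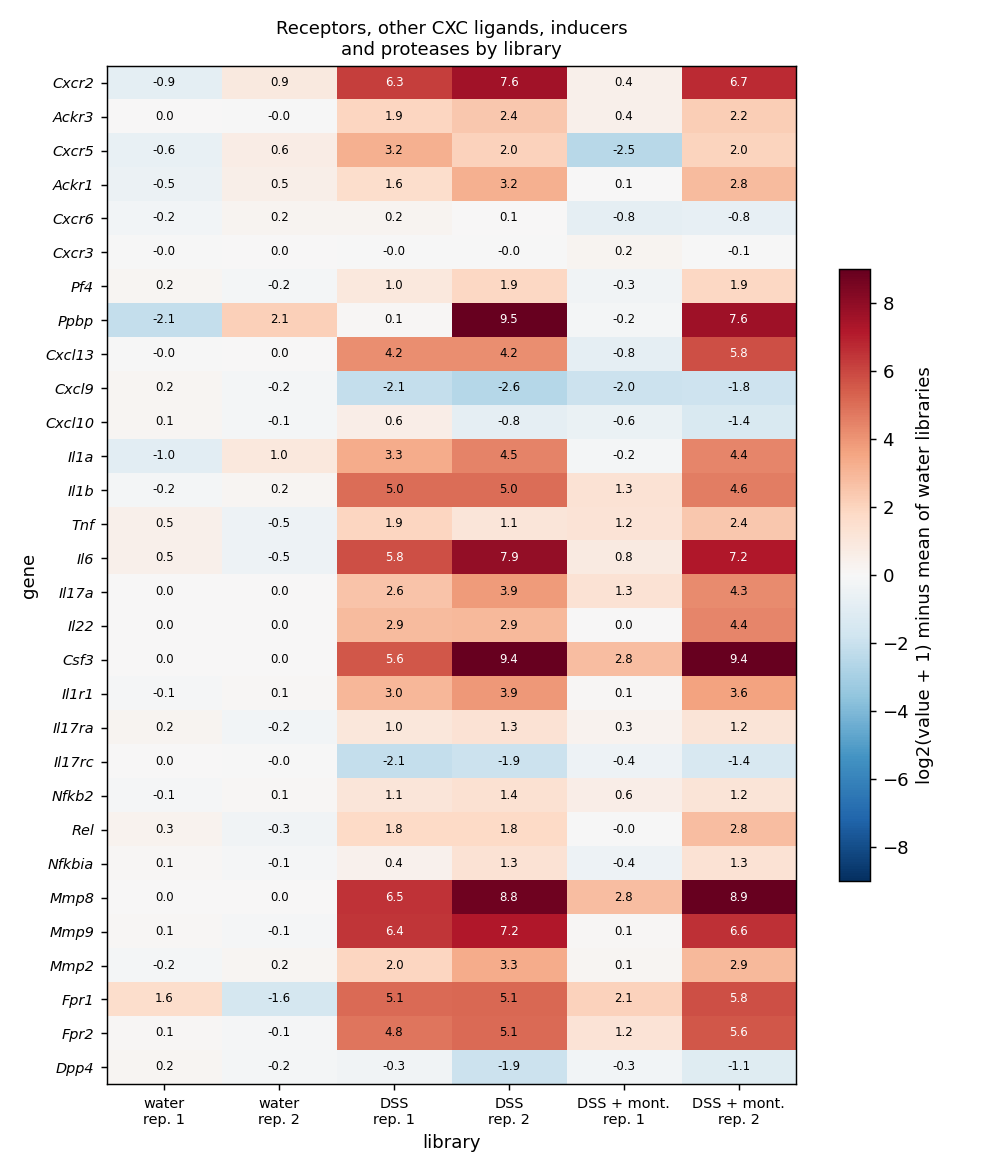
Log2(value + 1) minus the mean of the water libraries for receptors, other CXC ligands, inducers and proteases (rows) in the 6 libraries (columns; DSS + mont., DSS plus montmorillonite), as colour and number. Cxcr2, Il6, Csf3, Mmp8 and Mmp9 are high in both DSS libraries and montmorillonite replicate 2, while Cxcl9 is low in all 4 libraries given DSS.

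Of 15 neutrophil markers, among them Cxcr2, Mmp8 and Mmp9 of the lists above, 12 rose in DSS. The sums of their levels were 82.5 and 130 in water, 5985 and 17879 in DSS and, with montmorillonite, 272 and 14119. In water replicate 1 S100a8, S100a9, Cxcr2, Mmp8, Camp, Ngp, Retnlg and Trem1 were at 0, and in replicate 2 Mmp8, Camp, Ngp, Retnlg and Clec4d. S100a9, a neutrophil calprotectin subunit, had 27.3 in montmorillonite replicate 1, above both water libraries, where Cxcl1 and Cxcl3 lay within the water range. Neutrophils themselves also transcribe Cxcl2, and their part in its level was not tested. Markers of colonic epithelium, another source of ELR ligands, went the other way, with 10 of 12 falling in DSS and none rising.

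Markers of cells that make Cxcl12 or carry Cxcr4 were followed as well. Fibroblast markers rose in 7 of 12 cases and gave sums of 15452 and 17189 for water, 42654 and 67019 for DSS and, with montmorillonite, 15856 and 41463. Endothelial markers rose in 9 of 11 cases, with sums of 1183 and 1380, 4391 and 8560, and 1320 and 5071. Monocyte and macrophage markers rose in 8 of 14 cases, while Adgre1, Mrc1, C1qa, C1qb, C1qc and Arg1 did not pass. The 14 gave sums of 5795 to 6400 in water and 13516 to 15711 in DSS. With montmorillonite the sums were 6090 and 16081. B and plasma cell markers rose in 8 of 10 cases, with sums of 37511 to 38938, 151597 to 170151, and 45032 and 187468. No marker of these 4 lists was at 0 in any library. T and NK cell markers, another source of Cxcr4, gave sums of 695 and 580 for water and 850 and 688 for DSS. With montmorillonite they gave 347 and 838. In DSS 1 of 12 rose (Cd4) and 1 fell (Gzma), near the shares of all genes, 7.9% and 7.18%. Smooth muscle markers gave sums of 32323 and 54875 for water and 17617 and 31440 for DSS. With montmorillonite they gave 60796 and 24007. None was at 0, and 1 of 10 fell in DSS (Synpo2), near the 7.18% of all genes. Skeletal muscle markers stood apart in DSS replicate 2 (3285) and montmorillonite replicate 1 (4221), against 121 to 681 in the other 4 libraries, and none of 10 passed in DSS. Of these, Myh4 was at 0 in water replicate 1, Myh1 and Pvalb in water replicate 2, Myh4, Myh2 and Pvalb in DSS replicate 1, and Pvalb in montmorillonite replicate 2. The part of any of these cells in the levels of the members was not tested.

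The genes whose levels were most like each member over the 6 libraries were taken by Pearson correlation of log2(value + 1) among 12927 protein-coding genes with a mean of at least 20. Many genes correlate highly over so few libraries: r was above 0.95 for 493 (Cxcl1) to 888 (Cxcl5) genes with the ELR ligands, for 565 with Cxcl12, 662 with Cxcr4, 94 with Cxcl14 and 14 with Cxcl16. Cxcl2 and Cxcl5 were among each other's closest 3 (r = 0.998). Besides, Cxcl2 was nearest to Abcc5 and Plpp1, Cxcl5 to Adgrf5 and Igfbp7, Cxcl1 to Kcnj15, Rdh12 and Nfil3, and Cxcl3 to Gabbr1, Col18a1 and Lama4. Cxcr4 was nearest to Dclk2, Pik3cd and Samd5 and Cxcl12 to Dicer1, Cacna1d and Itih3. Cxcl14 was nearest to Eif2b5, Tars2 and Usp5 (r = 0.989 to 0.995), and Cxcl16 to Lpo, Gbp5 and Mpp6 (r = 0.976 to 0.984). The points share libraries and depth, and no p-value is given.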

How the data were processed

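The deposited table holds, by the authors, 1 signal value per gene and library: every value was a whole multiple, to within 0.01 read, of the smallest value above 0 in its library (100% of values), so the deposited signal is a read count divided by 1 factor. The submitters' processing notes name the builds mm10 and GRCm38; no aligner, counter or scaling method is named in the sources used here. Any reads shared by related genes such as Cxcl1, Cxcl2 and Cxcl3 may have been split or dropped by the counting. How alike their transcripts are was not measured.

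Each comparison was tested with limma 3.58.1 (R 4.3.3, intensity trend, two-sided) on log2(value + 1) of its 4 libraries, over 20307 genes with a mean of at least 1, with Benjamini-Hochberg adjustment over all of them and a threshold of 0.05. edgeR 4.0.16 and DESeq2 1.42.0 on recovered reads were alternatives. The 4-library fit was chosen knowing that the fit of 6 calls no gene. Members, lists and tests were chosen with earlier results of these data known. Exact permutation was left aside, since with 2 libraries a group its smallest p is 0.333. Named genes were the 8 members, each pathway list gene with a call and fixed receptors and ligands, and the 3 genes most correlated with each member. Other genes named were chosen after their values were seen. Symbols, positions and lengths came from GENCODE M21 (20500 identifiers found, 33 not). Promoters came from RefSeq, and protein sequences were not used here. The fits were also run on simulated data, whose spread was taken from the DSS and water libraries only. That run does not cover the spread between the montmorillonite libraries.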

Additional observations from a re-analysis of the deposited data

How the results depend on the processing

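In DSS against water 6 members and 3064 genes passed. With all 6 libraries in 1 fit 0 members and 0 genes passed, and likewise 0 and 0 with reads thinned to the shallowest library; the cause was not tested. Leaving out 1 library gave 0 to 4 members and 0 to 317 genes, with fewer samples in the fit. Other tests, scalings, pseudocounts and filters kept 6 members. The replicate block, whose numbers the labels do not tie to a shared mouse or day, raised the genes to 5084 and left 6 members; same-numbered libraries had correlated deviations of 0.196 (DSS and water), 0.160 and 0.409, and the block changed no other call. In DSS plus montmorillonite against water 0 genes passed, but 200 with DESeq2. Against DSS 0 passed, but 76 with DESeq2, and 0 to 285 genes and 0 to 3 members with 1 library left out.

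With each library left out in turn, several log2 differences ran through 0, the montmorillonite libraries giving both ends unless said. Against water, Cxcl14 ran from -1.75 to 0.24, Cxcl16 from -0.047 to 0.64 and Cxcr4 from -0.20 to 2.81. Against DSS, Cxcl1 ran from -5.39 to 0.86, Cxcl2 from -5.77 to 0.73, Cxcl3 from -6.29 to 0.73, Cxcl5 from -5.20 to 0.21, Cxcl12 from -1.33 to 0.56, Cxcr4 from -2.72 to 0.29 and Cxcl16 from -0.38 to 0.31 (0.13 without DSS replicate 1). Depth limits the ELR ligands in water most, where 1 read was worth up to 2.27.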
